A study of Mus musculus with 6 samples.

Results

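Cilia that beat are built on an axoneme, and the genes described here encode its structural parts and the enzymes that add amino acid chains to tubulin. They were chosen by symbol, with no measured value in the rule: axonemal dynein chains, tubulin tyrosine ligase-like (Ttll) enzymes, tektins, radial spoke and central pair proteins, the rulers and docking factors Ccdc39, Ccdc40, Ccdc113 and Ccdc114, the assembly factors Lrrc6 and Zmynd10, the tubulins Tubb4a and Tubb4b, the adenylate kinase Ak7, Mcidas and the Cfap family. Of 23420 genes, 40 matched. They were 13 Ttll genes, 3 dynein intermediate and light chain genes, 6 genes of rulers, docking and assembly, 6 radial spoke genes, 4 central pair genes, 5 tektin genes and 3 others. No gene was listed under a Dnah or Cfap symbol or as Mcidas, and those genes are described further on under the older symbols that the data use.

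RNA of whole uteri was sequenced from 8-week-old C57BL/6J females at pseudopregnancy day (PPD) 4.5 after mating with vasectomized males. The control females were Foxo1f/f, which carry floxed Foxo1 alleles without Cre, and the conditional knockout females were PgrCre/+ Foxo1f/f, called Foxo1d/d. Each genotype had 3 libraries, each from a pool of 2 mice, which gave 6 libraries. Cre at the Pgr locus acts in cells that express the progesterone receptor, so cells of the uterus without it keep Foxo1, and the ovary and pituitary also carry the deletion. The paper describes the deletion in the uterus as present from birth. The comparison asks which uterine transcripts differ around the time of implantation when Foxo1 is deleted in cells with the progesterone receptor. Foxo1 encodes a forkhead transcription factor.

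In a motile cilium, dynein arms on the outer doublet microtubules produce the sliding force, and radial spokes and the central pair apparatus control when each arm is active. Enzymes of the Ttll family add glutamate or glycine chains to the tubulin tails on the surface of the axoneme, and glutamylation tunes dynein activity while glycylation helps to maintain the cilium. In the female tract of the mouse, cells with many motile cilia are abundant in the oviduct and scarce in the uterus. Several of the ligases also act outside motile cilia, on primary cilia, centrioles and cytoplasmic microtubules.

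The values are the authors' mean raw counts per gene over the 3 libraries of a genotype. Counts of single libraries were not analysed here, so no spread between pools was computed. No test was made, and the p-values in the authors' own comparison were not used. The average depth of a library was 26125014 counts for the controls and 27257963 for Foxo1d/d. Levels are given as CPM, the mean count per 1000000 counts of its genotype. The log2 ratio sets Foxo1d/d over the control after a pseudocount of 1 was added to both means and the depths were made equal. A gene was called higher or lower where this ratio passed 1.5-fold and its mean count over both genotypes was at least 10. Folds of single genes were taken without the pseudocount, with a 95% Wilson interval from the summed counts that covers counting error only. Foxo1 itself (chromosome 3, 52268337 to 52350109, GRCm38.p6) averaged 3941 counts per control library and 1456 per Foxo1d/d library. This is a 2.82-fold lower level (interval 2.73 to 2.92; log2 ratio -1.50), which follows the genotype labels. The floxed part is a coding exon, and reads on the other exons are still counted.

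Most of these genes differed little between the genotypes. Of the 40 genes, 29 reached this minimum. Among those, Hydin and Ttll10 were higher in Foxo1d/d, Ttll6 was lower, and the other 26 lay within 1.5-fold. Across the 15696 genes of the table with such counts, 5.43% were called higher and 3.51% lower, so 2 and 1 of 29 are shares near the background (10.3% called in either direction against 8.94%). At a limit of 2-fold, Hydin was higher and Ttll6 lower, beside 1.99% and 1.4% of all genes. The median log2 ratio was 0.01 for the 29 genes and 0.02 for all 15696 genes. Within 1.25-fold lay 22 of the 29 genes, or 75.9%, against 78.5% of all genes. The counting interval of the fold lay above 1 for 7 genes, below 1 for 9 and on both sides of 1 for 13. At this depth an interval that leaves out 1 is common, since 36.7% of all genes had one above 1 and 27.3% one below it, 64% together. Because RNA came from whole uteri, fewer cells of a type and less RNA per cell cannot be told apart in any of these values.

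**Figure D1:**
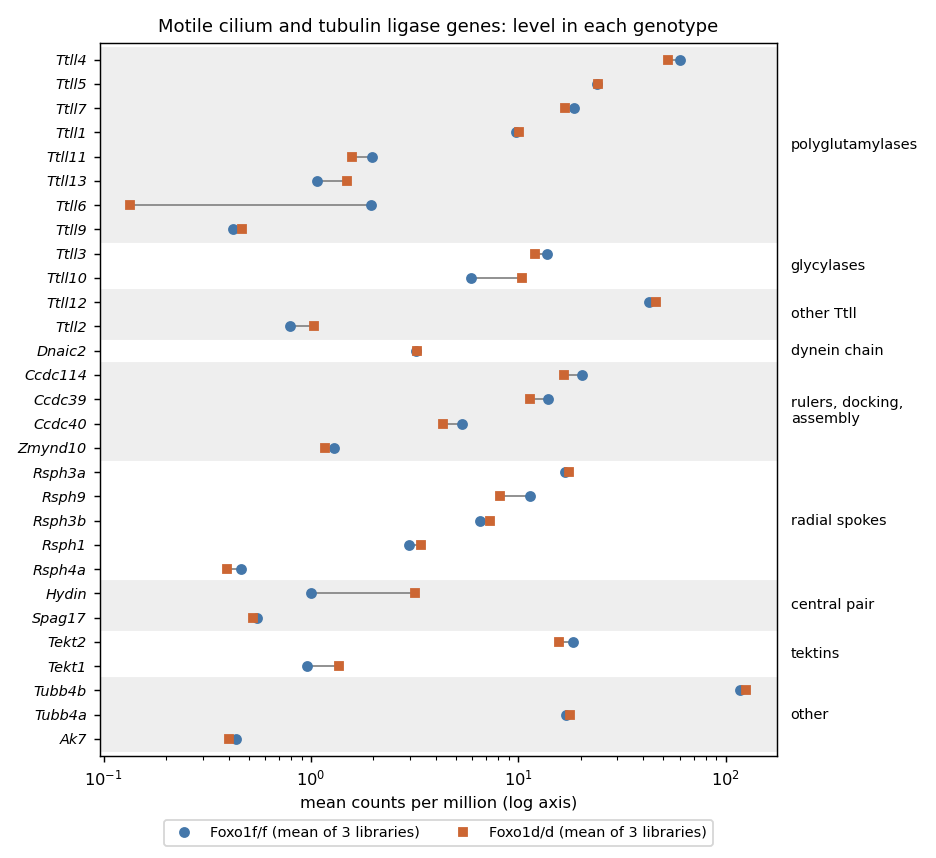
Mean CPM (log axis) of the 29 genes that reached the minimum, grouped by role. Circles are the mean of the 3 Foxo1f/f libraries and squares that of the 3 Foxo1d/d libraries, with no error bars because counts of single libraries were not used. The symbols lie close together except for Ttll6, Hydin and Ttll10.

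**Figure D2:**
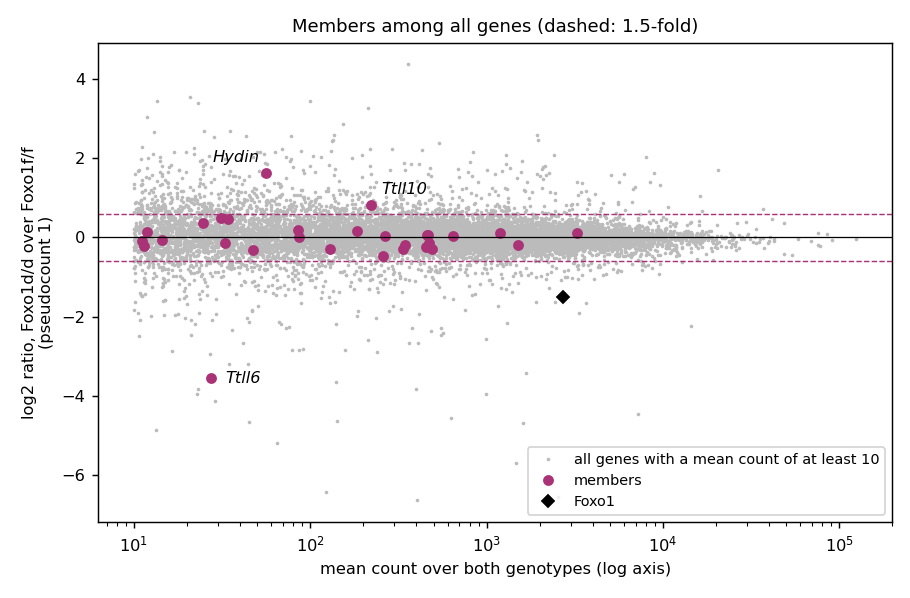
Log2 ratio of Foxo1d/d to Foxo1f/f (pseudocount 1) against the mean count over both genotypes (log axis) for all 15696 genes at or over the minimum of 10. The members are drawn as large circles, Foxo1 as a diamond and 1.5-fold as dashed lines. Ttll6 lies among the lowest ratios, and Hydin and Ttll10 lie above the upper dashed line.

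The promoters of the genes that were called are shown here because their sequences are referred to beside the values. Each is the RefSeq window from 250 bases before to 50 after a start site (GRCm38.p6), read 5′ to 3′ on the strand of the gene. The windows lie at chr11:96133536-96133835 (plus strand) for Ttll6, chr8:110266727-110267026 (plus strand) for Hydin and chr4:156050768-156051067 (minus strand) for Ttll10. Capitals mark matches to the forkhead motif GTAAACA, to the X-box motif of RFX factors (GTTNC and GGNAAC with 3 bases between them) or to GTTGCC, a shorter motif found within many X-boxes, on either strand.
Ttll6: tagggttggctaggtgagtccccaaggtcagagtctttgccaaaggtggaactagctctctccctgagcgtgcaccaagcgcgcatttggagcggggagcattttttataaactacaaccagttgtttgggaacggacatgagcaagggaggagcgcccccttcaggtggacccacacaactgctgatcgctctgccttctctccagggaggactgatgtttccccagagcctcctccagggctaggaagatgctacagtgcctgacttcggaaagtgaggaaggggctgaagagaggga
Hydin: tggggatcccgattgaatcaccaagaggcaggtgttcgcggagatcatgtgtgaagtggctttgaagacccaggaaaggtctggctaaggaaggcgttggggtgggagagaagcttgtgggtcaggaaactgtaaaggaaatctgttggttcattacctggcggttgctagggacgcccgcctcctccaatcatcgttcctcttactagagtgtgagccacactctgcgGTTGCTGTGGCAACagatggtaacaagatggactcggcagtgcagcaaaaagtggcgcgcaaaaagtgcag
Ttll10: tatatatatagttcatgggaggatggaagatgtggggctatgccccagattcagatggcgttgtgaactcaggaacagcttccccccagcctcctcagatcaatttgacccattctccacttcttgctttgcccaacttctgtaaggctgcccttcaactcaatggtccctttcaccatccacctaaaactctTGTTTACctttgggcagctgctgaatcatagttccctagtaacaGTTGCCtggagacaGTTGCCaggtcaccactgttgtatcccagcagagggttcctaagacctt

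Ttll6 had the largest difference of the 29 genes. It encodes a polyglutamylase that lengthens glutamate chains on tubulin in cilia. Ttll6 (Entrez gene 237930, chromosome 11, 96124457 to 96166182) averaged 51 counts per control library and 3.67 per Foxo1d/d library. This was a 14.5-fold lower level (interval 7.94 to 26.5), with a log2 ratio of -3.54. The mean count in Foxo1d/d lies under 10, so the gene passed the minimum through the control, and the size of its fold rests on few counts. By log2 ratio it was number 18 from the lowest of the 15696 genes, where Foxo1 was number 96. Per length it went from 0.506 to 0.0349 CPM per kb of exon. The gene Calcoco2 and 1 long noncoding RNA gene overlap Ttll6 in the RefSeq annotation. The counting is not stated to use strand, so reads of overlapping genes cannot be told apart. Calcoco2 itself averaged 0.667 counts per control library and 0 per Foxo1d/d library.

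The other 7 polyglutamylase genes had log2 ratios from -0.31 for Ttll11 to 0.46 for Ttll13. Ttll4, which starts glutamate chains and had the most counts of the group, averaged 1576 and 1444 counts (log2 ratio -0.19). Ttll13 averaged 28 and 40.7 counts, a 1.39-fold higher level (interval 1.06 to 1.84), inside the 1.5-fold limit. Ttll1 and Ttll5 had log2 ratios of 0.04 and 0.03, with intervals on both sides of 1. Summed per length over the 8 genes, the level was 13.7 CPM per kb in Foxo1f/f and 12.5 in Foxo1d/d. Ttll6 made up 3.69% of that sum in the control and 0.279% in the knockout. Ttll4 made up 38.2% and 36.7%, and Ttll1, which works in a complex with partner subunits, made up 24.5% and 27.6%.

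Ttll10 was the glycylase gene that was called. It encodes an enzyme that lengthens glycine chains, while the products of Ttll3 and Ttll8 start them. Ttll10 (Entrez gene 330010, chromosome 4, 156034835 to 156050817) averaged 155 counts per control library and 285 per Foxo1d/d library, a 1.76-fold higher level (interval 1.57 to 1.97) with a log2 ratio of 0.81. It was number 480 from the highest of the 15696 genes. No other RefSeq gene overlaps it. Ttll3 averaged 357 and 327 counts (log2 ratio -0.19). Ttll8 had a mean count of 0.333 in both genotypes, which is 1 read in all 3 libraries together. Of the glycylase level per length, Ttll10 held 35.4% in the controls and 52.4% in Foxo1d/d, while Ttll3 held 64.5% and 47.6%. On this scale the level of Ttll10 passed that of Ttll3 in the knockout, from 1.49 against 2.71 to 2.62 against 2.38 CPM per kb.

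The remaining Ttll genes were Ttll12 and Ttll2. Ttll12 had the most counts per length of the Ttll genes, at 10.5 CPM per kb in the controls and 11.4 in Foxo1d/d, and its log2 ratio was 0.12. Ttll2 had a log2 ratio of 0.38 with an interval on both sides of 1.

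**Figure D3:**
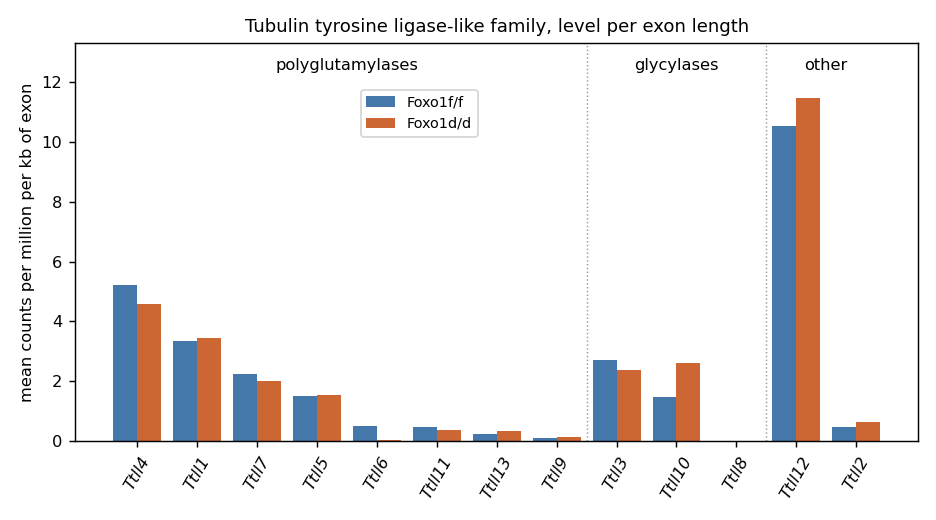
Level of the 13 Ttll genes in mean CPM per kb of exon, with 1 bar per genotype and no error bars. Ttll6 nearly disappears in Foxo1d/d, Ttll10 is taller than Ttll3 in Foxo1d/d and shorter in Foxo1f/f, and the other pairs of bars are near each other in height. Ttll8 is too low to see.

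Hydin had the largest ratio above 0. It encodes a very large protein of the central pair apparatus, and mice that lack it develop hydrocephalus. Hydin (Entrez gene 244653, chromosome 8, 110266968 to 110610253) averaged 26 counts per control library and 86.7 per Foxo1d/d library. The level was 3.19-fold higher (interval 2.48 to 4.11), with a log2 ratio of 1.64, number 103 from the highest of the 15696 genes. Per length its level stayed low, at 0.0552 and 0.176 CPM per kb. In the annotation 4 other genes overlap Hydin, of which 3 are long noncoding RNA genes, and their reads were not separated here. No other central pair gene was called. Spag17 had a mean count of 14.3 in both genotypes and a log2 ratio of -0.06. Spag16 averaged 1 and 2.33 counts and Spag6 averaged 0.667 and 2.67, both under the minimum.

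The dynein chains listed under the symbols of the rule were Dnaic1, Dnaic2 and Dnali1. Dnaic2, an intermediate chain of the outer arm, averaged 84 and 88 counts, a 1.00-fold difference (interval 0.845 to 1.19). Dnaic1 and Dnali1 had mean counts under 10 in both genotypes. The genes of rulers, docking and assembly that reached the minimum were not called. All 4 lay below 0, with log2 ratios from -0.30 to -0.15 and a median of -0.29, where 55.1% of all genes lay above 0. The 2 genes of this role under the minimum, Lrrc6 and Ccdc113, had ratios above 0. The docking factor Ccdc114 averaged 531 and 451 counts, a 1.23-fold lower level (interval 1.14 to 1.32). Ccdc39 and Ccdc40, which together set the spacing of spokes and inner arms, had log2 ratios of -0.29 and -0.30. For Zmynd10, an assembly factor for dynein arms, the value was -0.15 and the interval lay on both sides of 1.

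Among the radial spoke genes, 5 of 6 reached the minimum and none was called. Rsph3a, with the most counts, averaged 437 and 478 counts (log2 ratio 0.07). Its close paralog Rsph3b had a log2 ratio of 0.17, and how reads shared by this pair were treated in the counting is not stated. Rsph9, a spoke head gene named after its value was seen, averaged 296 and 223 counts, a 1.39-fold lower level (interval 1.25 to 1.53) just inside the limit. Rsph1 and Rsph4a, of the spoke head as well, had intervals on both sides of 1. Tektins form filaments within the wall of the doublets. Tekt2 averaged 482 and 426 counts (log2 ratio -0.24). Tekt1, at 25 and 37, had a log2 ratio of 0.49 (1.42-fold, interval 1.06 to 1.90). Tubb4b, a beta tubulin of cilia that other cells also use, was the gene of the set with the most counts and with the highest level per length. It averaged 3063 and 3430 counts (log2 ratio 0.10). Tubb4a had a log2 ratio of 0.07 and Ak7 of -0.10.

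**Figure D4:**
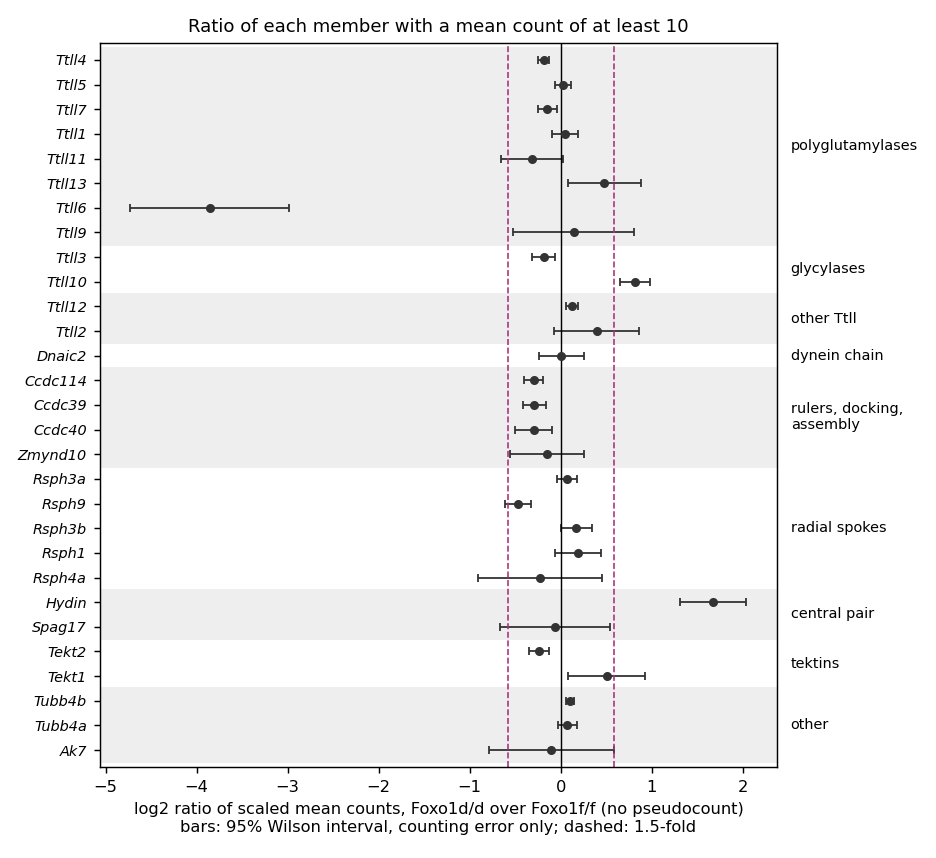
Log2 ratio of Foxo1d/d to Foxo1f/f, without a pseudocount, of the 29 genes that reached the minimum, with the 95% Wilson interval as bars (counting error only) and 1.5-fold as dashed lines. The intervals of Ttll6, Hydin and Ttll10 lie wholly beyond 1.5-fold. The 4 genes of rulers, docking and assembly lie to the left of 0.

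The 11 genes under the minimum were Ccdc113, Dnaic1, Dnali1, Lrrc6, Rsph6a, Spag16, Spag6, Tekt3, Tekt4, Tekt5 and Ttll8. None of their mean counts exceeded 10. Rsph6a was at 0 in Foxo1d/d and 0.667 in Foxo1f/f. Lrrc6, with averages of 0.667 and 3.33 counts, had an interval above 1 (1.18 to 19.4). The intervals of the other 10 genes included 1, so a difference was not detectable for them at this depth.

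Many axonemal genes are listed under symbols older than those of the rule. Matching to RefSeq by gene ID, symbol or synonym found 46 of them, with 11 dynein heavy chains listed as Dnahc, the light chains Dnalc1 and Dnalc4, and 33 others, mostly current Cfap genes. Of the 46 genes, 29 reached the minimum, 0 were higher and 1 was lower, or 3.45% called against 8.94% of all genes. Their median log2 ratio was -0.01. Dnahc10 was the lower gene, with averages of 105 and 69 counts, a 1.59-fold lower level (interval 1.34 to 1.90). The other 9 heavy chains that reached the minimum lay between -0.57, for Dnahc7b, and 0.17, for Dnahc8. Dnahc7a and Dnahc7b are near-identical, and how reads shared by them were treated in the counting is not stated. Dnahc1, an inner arm heavy chain with the most counts among them, averaged 460 and 457 counts. Per length the 11 heavy chains summed to 4.50 CPM per kb in Foxo1f/f and 4.17 in Foxo1d/d. Mcidas, listed as Mcin, encodes a regulator that starts the multiciliated cell programme and had 0 counts in both genotypes. The gene listed as Spag6 is Spag6l in RefSeq, and RefSeq's Spag6 is listed as BC061194, with averages of 21 and 17 counts. These genes were named after their values were seen.

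Regulators of ciliogenesis were taken from a list of 15 genes, of which 14 were found and 11 reached the minimum. Of these, 2 were higher and 0 were lower, which is 18.2% called against 8.94% of all genes. Foxj1, the forkhead factor that switches on motile cilium genes, averaged 12.7 and 25.3 counts, a 1.92-fold higher level (interval 1.30 to 2.82). Myb, which acts early in the making of multiciliated cells, averaged 72.3 and 155 counts, a 2.05-fold higher level (interval 1.75 to 2.41), but it is also expressed by proliferating blood cells. Rfx2 and Rfx3, whose products bind X-boxes, had log2 ratios of 0.04 and -0.29. Tfdp1, with the most counts, had a log2 ratio of 0.19. Gmnc, a geminin relative upstream of Mcidas, averaged 14.7 and 11 counts. Of 18 further assembly, docking and regulatory complex genes, 14 reached the minimum, with 0 higher and 1 lower, Nme5, at 96.7 and 65.3 (log2 ratio -0.62). This is 7.14% called, near the 8.94% of all genes. The median log2 ratio of the 14 genes was -0.01, and 1 of the 18, 1110004E09Rik, is also among the genes under older symbols.

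Markers of ciliated cells differed in direction. Of 25 genes, 23 were found and 11 reached the minimum, with 1 higher and 2 lower and a median log2 ratio of -0.33. The called share was 27.3%, against 8.94% of all genes, and 3 of the 11, or 27.3%, lay within 1.25-fold, against 78.5%. The ratio was below 0 for 7 of the 11 and above 0 for 4, and the counting interval lay below 1 for 5 and above 1 for 2. Of the 12 markers under the minimum, 9 had a ratio above 0 and 3 had equal counts in both genotypes, and the interval included 1 for 11 of these 12. Meig1 was the higher gene, at mean counts of 5.67 and 16.7 (2.82-fold, interval 1.64 to 4.85), and it passed the minimum through Foxo1d/d. Spef2 and Stk33 were lower, with log2 ratios of -0.68 and -0.59. Tppp3, the marker with the most counts and one that other cells also express, averaged 1896 and 2113 counts (log2 ratio 0.09). The summed level of the 23 genes was 113 CPM in Foxo1f/f and 111 in Foxo1d/d, of which Tppp3 alone gave 72.6 and 77.5. Without Tppp3, a sum taken after its values were seen, the other 22 genes came to 40.3 CPM in the controls and 33.4 in Foxo1d/d. Pifo, Sntn and Fam216b were at 0 in Foxo1f/f, where 3 counts over the group is the limit that a count of 0 allows, and had mean counts of 2.67, 0.667 and 0.667 in Foxo1d/d. Pifo, with 8 reads in all 3 knockout libraries together, had a counting interval above 1. The intervals of Sntn and Fam216b, with 2 reads each, included 1. The part of these markers in the values of the axonemal genes was not tested.

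Genes of intraflagellar transport, the BBSome and primary cilia were much more abundant. All 34 found of 35 reached the minimum, with 0 higher, 1 lower (Kif17, mean counts of 159 and 106, log2 ratio -0.64) and a median log2 ratio of -0.04. Within 1.25-fold lay 31 of the 34 genes. Other genes of tubulin modification included the deglutamylase Agtpbp1, the acetylase Atat1, the deacetylase Hdac6 and partner proteins of such enzymes. The 15 of 17 that reached the minimum were all within 1.25-fold. The 13 other tubulin genes that reached it, of 17, included 0 higher and 1 lower gene, Tuba8, with averages of 81.3 and 41.7 counts (2.04-fold lower, interval 1.64 to 2.53). Of 9 cytoplasmic dynein genes, Dync1i1 was higher, with averages of 118 and 202 counts (log2 ratio 0.71), and 0 were lower. The called shares were 2.94% of the primary cilium genes, 0% of the modifier genes, 7.69% of the other tubulin genes and 11.1% of the cytoplasmic dynein genes, beside 8.94% of all genes. Kif17, Nme5, Spef2, Stk33 and Dync1i1 were named after their values were seen.

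**Figure D5:**
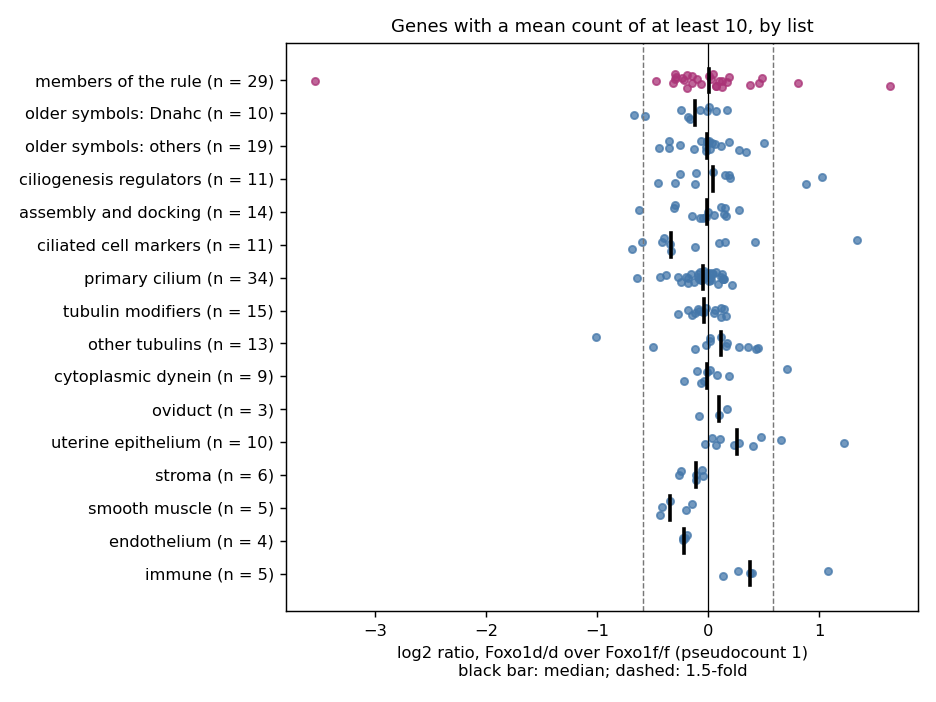
Log2 ratio of Foxo1d/d to Foxo1f/f (pseudocount 1) of genes at or over the minimum of 10, by list, with 1 circle per gene, black bars for medians and dashed lines at 1.5-fold. The medians of the members, of the genes under older symbols and of the lists of primary cilium and tubulin modifier genes lie near 0. Those of uterine epithelium and immune genes lie above it. Lower medians were -0.34 for smooth muscle, -0.33 for ciliated markers, -0.22 for endothelium and -0.11 for stroma.

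The composition of the tissue was read from marker lists beside these results. Of 10 markers of uterine epithelium, 2 were higher, Krt19 (log2 ratio 1.22) and Wnt7a (0.66), with a median of 0.26. The called share was 20%, beside 8.94% of all genes. Their summed level was 804 CPM in the controls and 970 in Foxo1d/d. Cdh1, with the most counts, had a log2 ratio of 0.11. The 5 smooth muscle markers summed to 5447 and 4362, and Myh11, with the most counts, had a log2 ratio of -0.43. The 6 stromal markers summed to 3948 and 3540, with Dcn at -0.11, and the 4 endothelial markers to 1030 and 887, with Pecam1 at -0.22. The 5 immune markers summed to 196 and 249, with Ptprc at 0.40 and Cd3e, at mean counts of 52 and 116, called higher. The called share of this list was 20%, beside 8.94% of all genes. None of the markers on these lists was at 0. The part of these shifts in the values of the ciliary genes was not tested.

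Oviduct and sperm could also carry axonemal transcripts. Of 4 oviduct genes, 3 were found and none was called, and Ovgp1, the gene of the oviduct glycoprotein, averaged 2923 and 3433 counts (log2 ratio 0.17). The 3 genes, Ovgp1, Pax8 and Gpx8, summed to 261 CPM in Foxo1f/f and 279 in Foxo1d/d. Whether uterine cells also express them was not examined, so this sum is not a measure of oviduct tissue. All 7 sperm genes lay under the minimum, with Prm1 highest at 6 and 9, and Akap4 and Smcp at 0 in both genotypes. The summed level of the sperm genes was 0.447 and 0.489 CPM. The females had mated with vasectomized males, and the part of oviduct or sperm transcripts in the values of the axonemal genes was not tested.

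The genes around Ttll6, Hydin and Ttll10 were compared to see whether neighbours within 200 kb shared their differences. Around Ttll6, 20 genes were listed and 14 reached the minimum, and none of them was called, with log2 ratios from -0.56 to 0.15. Most of these were genes of the Hoxb cluster. Around Ttll10, 27 genes were listed and 24 reached the minimum, with 0 higher and 1 lower, 2310042D19Rik at -0.75. Around Hydin, all 6 listed genes reached it, with 0 higher and 2 lower, or 33.3% lower beside 3.51% of all genes. Of these, Calb2, which encodes calretinin, was lower, from a mean count of 71.7 to 11 (6.80-fold, interval 4.72 to 9.79), as was Il34, a cytokine gene, from 164 to 79.3 (2.16-fold, interval 1.85 to 2.52). Vac14, which lies 8.28 kb from Hydin, had a log2 ratio of 0.18. Of the 44 neighbours of the 3 genes that reached the minimum, 0 were higher and 3 lower, or 0% and 6.82%, beside 5.43% and 3.51% of all genes.

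Promoter windows were given for 35 of the 40 genes, 39 windows in all, and were searched on both strands. The X-box motif was in 4 of these 39 windows, those of Hydin, Spag16, Tekt4 and Ttll9, or 10.3%, against 0.804% of all 32851 windows. Of the 43 windows of the genes under older symbols, 4 held it, or 9.3%. This form of the X-box motif was written after windows had been seen, so its shares were not set in advance and only describe the windows. GTTGCC was in 16 of the 39 windows, or 41%, against 12.5% of all. It can lie inside the X-box motif, so the counts overlap. The forkhead motif GTAAACA, which FOXO and other forkhead factors can bind, was in 3 of the 39 windows, those of Ak7, Tekt3 and Ttll10, or 7.69%, against 3.65% of all windows. In the sequences printed above, the Hydin window holds 1 X-box match that begins 21 bases before the start site. The Ttll10 window holds 1 forkhead match that begins 57 bases before the start and GTTGCC at 2 places around the start. The Ttll6 window holds none of the 3 motifs, and its start site lies inside the RefSeq span of the gene, which begins upstream of it. A match is a run of letters and not a measured binding site. Of the genes with the X-box motif, Hydin was called higher, while Ttll9, at mean counts of 11 and 12.7, was not, and Spag16 and Tekt4 were under the minimum.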

How the data were processed

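The authors made poly(A) TruSeq libraries, sequenced them as paired ends, trimmed the 5′ ends, aligned with STAR, removed duplicates with picard and counted reads per RefSeq gene with HTSeq. Tool versions, and whether counting used strand, are not given in the sources used here. The study names mm10 and the submitters' processing notes mm9, so coordinates and promoters come from RefSeq GRCm38.p6. The authors deposited 1 table in which every gene has an average raw count for either genotype, and all of these are whole after multiplication by 3 (tolerance 1e-06). Its columns of the edgeR comparison hold fold changes, average log2 CPM, p-values and FDR, and were not used. Columns of unlisted samples numbered 0. The summed counts were 78375043 in Foxo1f/f and 81773890 in Foxo1d/d.

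Ratios were computed in Python 3.11.15 (numpy 2.4.6, pandas 2.3.3, scipy 1.17.1, matplotlib 3.10.9), and the steps were tested on simulated data. The planned design used the mean counts, with no test. Lengths are the union of exons in GENCODE M21. Named were Foxo1, members over 1.5-fold, the member with the most counts of each role, Foxj1, list genes over 2-fold and the marker with the most counts of each cell type. Further genes were named after their values were seen. The members and lists were chosen with earlier results of these data known, and the X-box motif was written in this relaxed form after windows had been seen. The alternatives were a fold of 2, minimum counts of 1 and 50, a pseudocount of 0.1 and ratios centred on the median gene. A counting interval beyond 1.5-fold, the genes under older symbols, leaving out the Ttll genes, leaving out Tppp3 from the ciliated markers and centring the other tubulin genes were added after the data were seen.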

Additional observations from a re-analysis of the deposited data

How the results depend on the processing

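No paired analysis was possible because the deposited columns are means per genotype and carry no replicate numbers. For the same reason fits that leave out a library or use a replicate block were not run. Of the 2 genes called higher, 1 (Hydin) passed a fold of 2. With a minimum count of 1, 6 genes were called higher, where Lrrc6, Spag16, Spag6 and Tekt4 joined the 2. The added genes had mean counts under 10 in both genotypes. The share of all genes called at that minimum was not computed, so the 6 cannot be set against a background. The number called lower was 0 with a minimum count of 50, since Ttll6 lies under it, and 2 with the genes under older symbols, where Dnahc10 was added. With a pseudocount of 0.1, with centring and with a counting interval beyond 1.5-fold, the genes called were the same 2 higher and 1 lower. The counts were not taken without the Ttll genes alone, a set that leaves out Ttll10 and Ttll6. Without the Ttll genes, Tubb4a and Tubb4b, 15 of 25 genes reached the minimum, with 1 higher and 0 lower. The median log2 ratio of 0.0051 was 0.0438 with a minimum count of 1, 0.0261 with a minimum of 50, -0.0196 when centred on the median gene, -0.00921 with the genes under older symbols and -0.0612 without the Ttll genes. The sign of this median is therefore not fixed by the data, and the cause of the moves was not tested. For 27 named genes, 51 of 54 values under another pseudocount or centring lay within the counting interval of the main value. The other 3 were Dcn, Myh11 and Pecam1 under centring, which moved every ratio by 0.02. Dnaic2 changed sign, from 0.01 to -0.02. Depth limits the 11 genes under the minimum and the size of the Ttll6 fold.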

Other observations

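Other tubulin genes lay within 1.5-fold of the control level in Foxo1d/d uteri except for Tuba8. Of the 13 with a mean count of at least 10, 9 had a log2 ratio above 0 and 4 below, with a median of 0.12. Of all 15696 genes, 8649 lay above 0, or 55.1%. When ratios were centred on the median gene, a setting added for this list after the data were seen, 7 of the 13 tubulin genes lay above 0 and 6 below. Tuba4a averaged 800 and 1141 counts (log2 ratio 0.45), and Tubb2b averaged 188 and 265 (0.43). The gamma tubulins differed in direction, with Tubg1 at 0.36 and Tubg2 at -0.50. Tubb5, with the most counts, averaged 13580 and 14394 counts (0.02). These genes were named after their values were seen, and no test across pools was computed.

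Trp73, a p53 family gene that acts in multiciliated cells, averaged 2.67 and 7 counts, under the minimum, with a 2.52-fold ratio (counting interval 1.14 to 5.56). It rests on 8 and 21 reads and was named after its value was seen. The other listed regulators under the minimum, Ccno (interval 0.655 to 1.89) and Foxn4 (0.411 to 8.95), had intervals that included 1.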
